A study of Porolithon cf. onkodes and Sporolithon durum with 38 samples.

Results

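The 200 transcripts described here are the abundant transcripts of the coralline alga Sporolithon durum whose mean level was alike in 2 sets of libraries that otherwise hold very different profiles. They were chosen from the counts themselves. Counts of each library were divided by the library's total and put on the CPM scale, on which each library has the same sum, and mean CPM was taken over libraries SD1, SD2 and SD5 and over the other 16 libraries. A transcript was kept where the 2 means, each plus 0.5, lay within 2-fold, and the 200 with the highest value of the lower mean were taken. They are 200 of 66332 transcripts with a count, of 185036 S. durum transcripts and of 303162 transcripts of both species in the series. Of the 66332, 26156 lay within the 2-fold limit. The rule also left out the transcripts chosen for qPCR. There were 5 of these, and 0 of them would have been among the members.

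Coralline algae are red algae that deposit calcium carbonate in their cell walls and help to bind reefs together. In most tissues a small number of very abundant transcripts, often for housekeeping and photosynthetic proteins, takes up a large part of all the mRNA molecules counted. Transcripts that hold one level across conditions serve as references for others, and because CPM is a share of a total, a change in a few abundant transcripts moves the CPM of all the rest. The S. durum transcripts carry only the names of their de novo assembly, in which DN, c, g and i number the component, subcomponent, gene and isoform. The sources used here give no protein name or sequence for any of the 200, so that neither function nor sequence is described.

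The study kept field-collected fragments of 2 coralline algae in aquaria for 3 months under 4 treatments and counted transcripts in the pigmented surface tissue with CEL-Seq2, which primes at the poly(A) tail, reads the 3′ end and counts molecules by short random identifiers. For S. durum the control (27.2 °C, pH 8.0, 450 µatm pCO2) has 4 libraries, SD4, SD10, SD13 and SD17. Elevated temperature (T; 29.5 °C, pH 8.0, 450 µatm) has 5, SD1, SD2, SD8, SD18 and SD20. Reduced pH (pH; 27.2 °C, pH 7.7, 1000 µatm) has SD3, SD5, SD9, SD11 and SD14, and the combination (T + pH; 29.5 °C, pH 7.7, 1000 µatm) has SD6, SD7, SD12, SD15 and SD19. The fragments came from wild algae and were cleaned of epiphytes as far as this could be done. The labels call them biological replicates, 1 library each.

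Several facts about the libraries bear on every value below. SD1, SD2 and SD5, 2 from T and 1 from pH, stand apart from the rest, with a median Spearman correlation across all tested transcripts of 0.157 to the other 16 (48 pairs of libraries), against 0.870 within the 16. The treatments given here are those of the column names. However, 18 of the 19 column totals are listed by the study for another sample, and by those totals 12 columns would have another treatment. Totals ran from 262942 counts in SD18 to 21542260 in SD9. Over the 36 pairs of libraries of the same named treatment, the lowest chi-square per degree of freedom was 8.32. No library was therefore counted as a repeat of another within its named treatment, and pairs across named treatments were not checked. Because the rule set SD1, SD2 and SD5 against the rest, treatments were compared in the 16 other libraries (4 control, 3 T, 4 pH and 5 T + pH), and the fit on all 19 is given beside them.

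**Figure D1:**
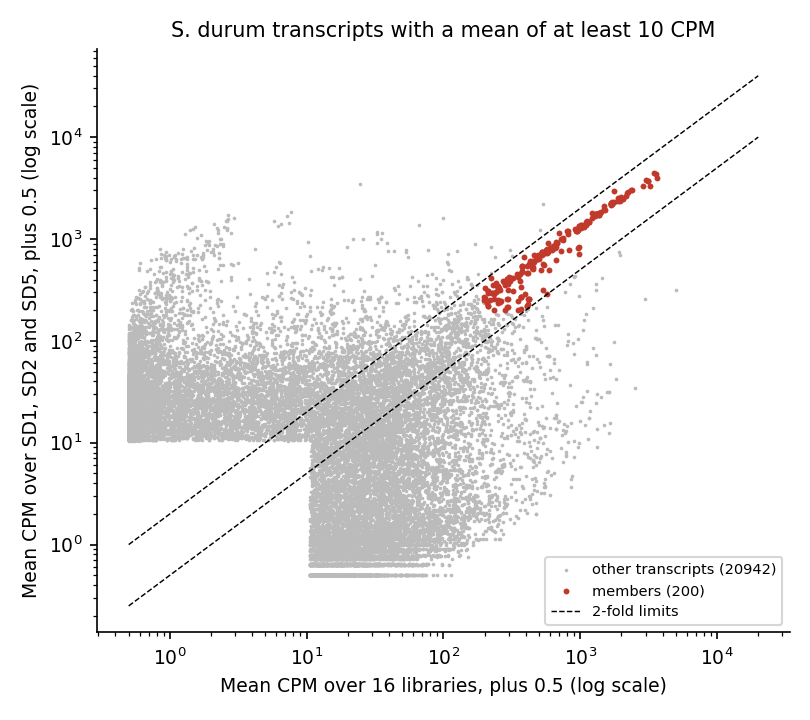
Mean CPM of S. durum transcripts over the 16 libraries (x axis) and over SD1, SD2 and SD5 (y axis), both plus 0.5 and on log scales, for the 21142 transcripts with either mean at or above 10 CPM. Red points are the 200 chosen transcripts, between the dashed 2-fold limits by construction, and most grey points lie outside those limits.

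The values that chose the members are given as a description. The lower mean ran from 197 to 3647 CPM, with a median of 539 CPM. At or above that lower limit there were 223 transcripts, of which 23 were outside 2-fold, 7 higher and 16 lower in SD1, SD2 and SD5. The last members by abundance were DN196397_c0_g1_i7 and DN195819_c2_g2_i2, both at 197 CPM, and the next were DN199046_c1_g2_i4 and DN198242_c12_g3_i1, both at 196 CPM. The members nearest the fold limit were DN199917_c1_g1_i4, with means of 289 and 571 CPM in the 3 and the 16 libraries (log2 ratio -0.98), and DN200890_c2_g1_i3, with 413 and 221 CPM (0.90). Just outside it were DN200146_c5_g1_i1, with 207 and 416 CPM (-1.01), and DN201178_c0_g1_i1, with 467 and 224 CPM (1.06). Transcripts were also ranked by the average of the 2 means in place of the lower mean, which brings in those high in 1 set only. By that rank 59% of ranks 1 to 200 lay within 2-fold, 23.4% of ranks 201 to 1000, 21.9% of ranks 1001 to 5000 and 12.8% of ranks 5001 to 20000.

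Within the limit the members were not spread evenly. In the 3 libraries 165 were higher and 35 lower than in the 16, with a median log2 ratio of 0.37, and 181 lay within 1.5-fold. Each of the 3 libraries taken alone was within 2-fold of the mean of the 16 for 168 members. For 175 members all 3 libraries lay inside the range of the 16. Across the 200 members the order of levels in the 3 libraries was close to that in the 16, with a median Spearman correlation of 0.879 (0.722 to 0.940 over the 48 pairs, which share libraries), against 0.892 within the 16 and 0.922 within the 3. The rule keeps only like means, so a high value between the 3 and the 16 was largely fixed by the choice of members. The same holds for the counts of 168 and 175. None of these values is a sign that the 2 sets are alike.

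No member had a count of 0 in any library. The lowest count of a member was 5 and the highest 16100, while the highest count of any transcript was 16373. Identifiers of 7 bases would give 16384 distinct sequences, although no source used here states the length, and counts near such a limit may be saturated, which lowers the CPM of abundant transcripts in deep libraries. In SD9, the deepest library, 102 members had more than 8192 counts, as had 36 in SD20 and 11 in SD13. Values are therefore also given corrected for repeated identifiers, on the assumption of 16384 of them, where the correction moves them.

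The most abundant member was DN179967_c0_g1_i2. Its CPM was 3897, 4100.4, 2340.4 and 6004 in control libraries SD4, SD10, SD13 and SD17, and 3912, 3532, 2580.0, 9919 and 1408 in T libraries SD1, SD2, SD8, SD18 and SD20. In pH libraries SD3, SD5, SD9, SD11 and SD14 it was 3123, 4369, 747, 3666 and 2533, and in T + pH libraries SD6, SD7, SD12, SD15 and SD19 it was 2891, 3757, 3585, 4402 and 3397. SD18 was highest and SD9 lowest, 13.3-fold apart as deposited, and the 4 treatments overlapped. Its 16100 counts in SD9 lie just below 16384, and after the correction SD18 and SD9 were still the extremes but 4.27-fold apart. The means over all 19 were 4086 ± 1501 (SD, n = 4) in the control, 4270.1 ± 3303 (n = 5) in T, 2888 ± 1375 (n = 5) in pH and 3606 ± 551 (n = 5) in T + pH. Every pair of these means lay closer together than the larger SD of the pair.

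The other 7 of the 8 most abundant members had the same shape. DN122981_c0_g1_i1, the second, ran from 705 CPM in SD9 to 11413 CPM in SD18, 16.2-fold as deposited and 7.70-fold after the correction. DN197501_c1_g3_i1, DN200499_c5_g1_i1, the isoforms DN197477_c0_g1_i2 and DN197477_c0_g1_i3, DN166949_c0_g1_i3 and DN200841_c1_g2_i3 were also highest in SD18 and lowest in SD9, with 11.5-fold to 15.3-fold between them as deposited and 4.59-fold to 7.28-fold after the correction. The CV (coefficient of variation, SD over mean) of CPM over the 16 libraries was 0.519 to 0.658 for all 8, and 0.405 to 0.533 after the correction.

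The summed counts of the members made up a different share of each library. It was lowest in SD9 at 7.79% (95% Wilson interval 7.78 to 7.80) and highest in SD18 at 39.8% (39.6 to 40.0), and no interval was wider than 0.187 percentage points either side. These intervals cover counting error only and treat every count as a separate molecule. Members that are isoforms of 1 gene often had near-equal counts, as given below, so the intervals may be too narrow. By treatment the share was 16.6% ± 3.82 (SD, n = 4) in the control, 21.5% ± 11.3 (n = 5) in T, 15.1% ± 5.05 (n = 5) in pH and 17.7% ± 1.17 (n = 5) in T + pH. The range of T, from 10.6% in SD20 to 39.8% in SD18, enclosed all control and T + pH libraries. The 3 deepest libraries, SD9, SD20 and SD13, held 7.79%, 10.6% and 13.8%, and SD18 is the shallowest. With counts corrected for repeated identifiers SD9 held 10.4% and SD18 40.6%, so that the correction moved the lowest share and left most of the range. In bulk tissue, fewer cells of a type and less RNA per cell cannot be told apart, and neither can a rise of these transcripts and a loss of all others.

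**Figure D2:**
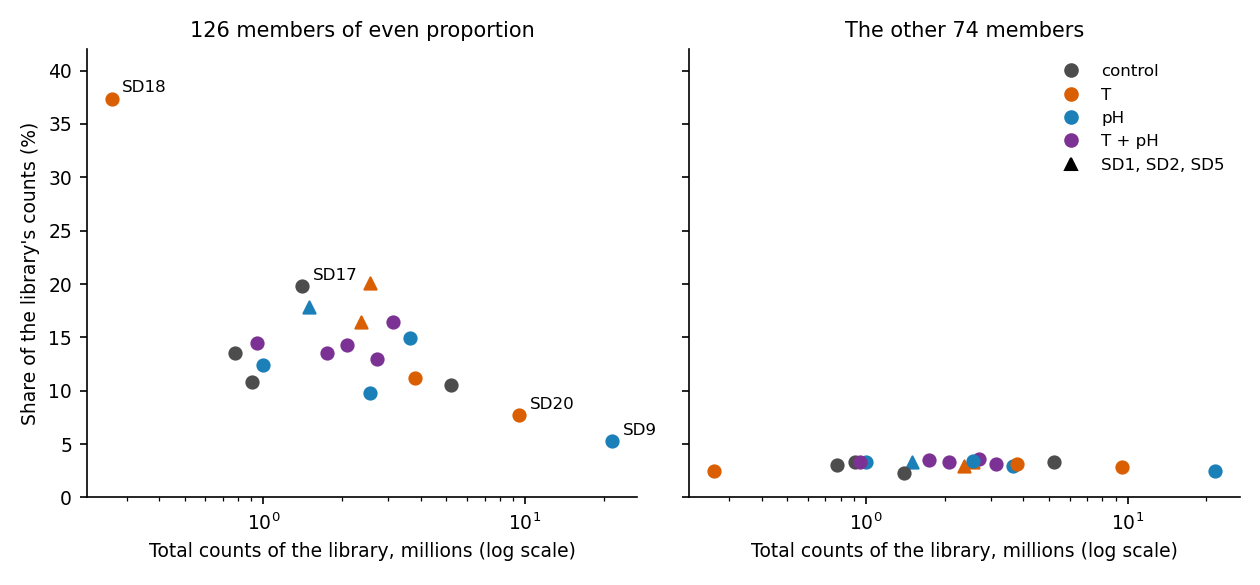
Share of a library's counts (y axis, percent) against its total counts (x axis, log scale) for the 126 members that kept an even proportion to one another (left) and for the other 74 (right). Each point is a library, coloured by treatment, with triangles for SD1, SD2 and SD5. On the left SD18 sits at 37.4% and SD9 at 5.28%, while on the right all 19 libraries lie between 2.26% and 3.56%.

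Much of the variation was common to many members. When each count was divided by the summed counts of the 200 members in place of the library total, the median CV over the 16 libraries fell from 0.431 to 0.186. On this scale 126 members had a CV below 0.25, against 7 members on the CPM scale, and the members were divided there into 2 kinds. The 126 made up 67.7% to 93.9% of the member sum in a library, so their low CV comes in part from the sum itself. A member even with that sum also tends to share its highest and lowest libraries, SD18 and SD9. The limit of 0.25 was chosen after the values were seen, so the comparison of the kinds is a description.

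The 126 members of even proportion, from 108 assembled genes, made up the upper part of the list. Their median lower mean was 951 CPM, and they took 85 of the first 100 ranks. SD18 was the highest library for 125 of them and SD7 for the other, and SD9 was the lowest for 103. Their CPM in SD18 was a median of 5.53-fold that in SD9 (2.09 to 16.2) as deposited and 4.78-fold (1.35 to 10.1) after the correction, with SD18 then highest for 124 and SD9 lowest for 107. All 126 were higher in SD1, SD2 and SD5 than in the 16, by log2 ratios of 0.01 to 0.74 with a median of 0.39. The member sum, of which they are the larger part, was itself high there. It was 23.4%, 19.4% and 21.2% of these libraries, against a median of 16.5% in the 16. These means also chose the members, so the common direction is largely given in advance. Their summed share of the library ran from 5.28% to 37.4%, a 7.08-fold range, with a CV of 0.504 over the 16 libraries, and from 7.36% in SD9 to 38.2% in SD18 after the correction.

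The other 74 members, from 60 genes, were less abundant, with a median lower mean of 267 CPM. Their sum varied little, 2.26% to 3.56% of the counts in all 19 libraries, a 1.57-fold range, with a CV of 0.126 over the 16, and 2.25% to 3.61% after the correction. Singly they went different ways. SD18 was the highest library of none of them and the lowest of 15, SD17 was the lowest of 24 and SD7 of 10, and 16 different libraries were the highest for at least 1 of them. In the 3 libraries 39 were higher and 35 lower. Their median CV of CPM over the 16 libraries was 0.359, against 0.478 for the 126.

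Other abundant transcripts had other highest and lowest libraries. Over the 16 libraries SD18 was the highest for 126 of the 200 members (63%) but for 12 of the 604 other transcripts with a mean at or above 197 CPM in the 16 (1.99%). SD9 was the lowest for 106 members (53%) and for 32 of the 604 (5.30%). No test was made of this difference. It is also fixed in part by the scale, on which each library has the same sum. The members took 39.8% of SD18 and 7.79% of SD9, so the share left to all other transcripts was lowest in SD18 and highest in SD9.

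**Figure D3:**
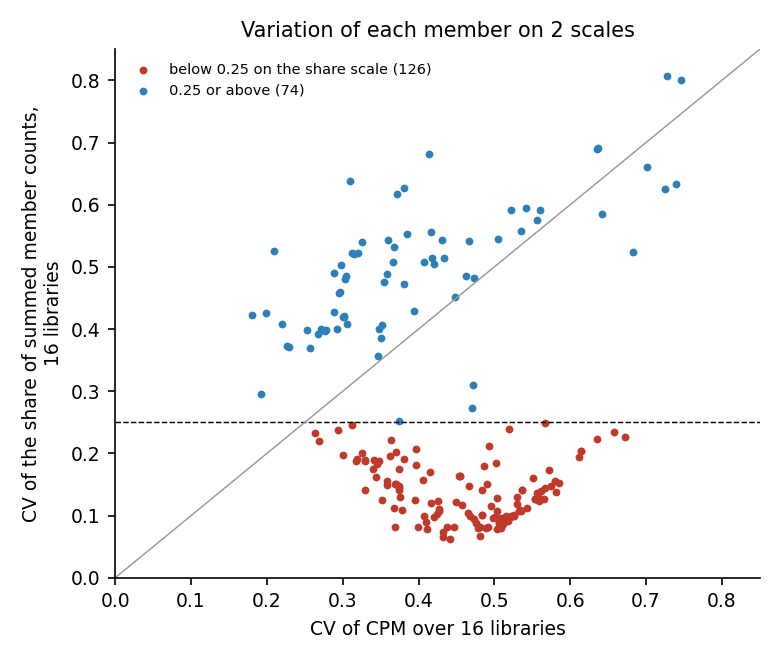
CV of each member over the 16 libraries, on the CPM scale (x axis) and as a share of the summed member counts (y axis). Red points are the 126 members below 0.25 on the share scale (dashed line) and blue points the other 74, most of which lie above the grey line of equal CV.

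By CPM the members varied somewhat more than other abundant transcripts, with no test of the difference. Their CV over the 16 libraries had a median of 0.431 and ran from 0.180 to 0.747, with 135 members (67.5%) below 0.5. The 604 other abundant transcripts had a median of 0.372, and 72.0% were below 0.5. Over all 39230 transcripts tested in the 16 libraries the median was 0.799, which includes many of low count. SD18 alone decided part of the members' value, since the median fell to 0.291 without it. No value without SD18 is given for the 604, so the 0.291 cannot be set against theirs.

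The 4 steadiest members by CPM over the 16 libraries were all among the 74. DN199602_c0_g2_i1 had a CV of 0.180, with 217 CPM in SD18 as its lowest value, a median of 354 and 461 CPM in SD10 as its highest. It was lower in SD1, SD2 and SD5, at 167, 262 and 171 CPM, a log2 ratio of -0.82, so that it was steady in the 16 and not across the 2 sets. DN200794_c4_g1_i2 (CV 0.199) ran from 331 CPM in SD18 to 736 CPM in SD11, and DN198531_c0_g5_i2 (CV 0.209) from 202 CPM in SD18 to 421 CPM in SD10.

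DN197633_c4_g1_i1 was the steadiest over all 19 libraries among these 4 and the most abundant of them, with a CV of 0.192 over the 16 and 0.204 over the 19. Its CPM was 1117, 1085, 1100.2 and 717 in control libraries SD4, SD10, SD13 and SD17, and 1096, 756, 769.7, 783 and 966 in T libraries SD1, SD2, SD8, SD18 and SD20. It was 968, 666, 597, 969.6 and 1061 in pH libraries SD3, SD5, SD9, SD11 and SD14, and 1343, 1023, 976, 1183 and 1100.4 in T + pH libraries SD6, SD7, SD12, SD15 and SD19. SD6 was highest and SD9 lowest, 2.25-fold apart, but its 12858 counts in SD9 are also high, and after the correction SD5 was lowest in place of SD9, 2.18-fold below SD6. In the 16 libraries T + pH lay wholly above T, while T + pH overlapped the control and pH.

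The 4 most variable members show that like means can hide unlike libraries. DN200152_c7_g2_i2 (CV 0.747) had a median of 234 CPM and 419 CPM in SD13, its highest library, but 13.2 CPM in SD10, 9.97 in SD17, 1.95 in SD9 and 1.59 in SD7. These 4 libraries held 12, 14, 42 and 5 of its counts, and they belong to the control, pH and T + pH. DN199569_c0_g1_i2 (CV 0.727) was also lowest in SD7, at 1.91 CPM, and in SD9, at 2.55 CPM, with 676 CPM in SD19 at the other end, a 354-fold range. DN193660_c1_g1_i3, named because it was the other member below 10% of its median in some library, had 9.24 CPM in SD7 against a median of 223 CPM. SD7 is the library in which all 3 of these members were lowest, at under 10 CPM.

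DN106799_c0_g1_i1 (CV 0.725) and DN195819_c2_g2_i2 (CV 0.739) varied in another way and together. DN106799_c0_g1_i1 had 98.0, 84.8, 229 and 714 CPM in control libraries SD4, SD10, SD13 and SD17, and 87.2, 70.6, 412, 145 and 84.1 in T libraries SD1, SD2, SD8, SD18 and SD20. In pH libraries SD3, SD5, SD9, SD11 and SD14 it had 56.0, 772, 89.4, 414 and 169.6 CPM, and in T + pH libraries SD6, SD7, SD12, SD15 and SD19 it had 337, 209, 424, 178 and 272. High and low libraries occurred in the control, T and pH, 13.8-fold apart at most, whereas the T + pH libraries lay between 178 and 424. DN195819_c2_g2_i2 had the same highs and lows at a lower level, with 1.26 counts of the first for each of the second on average.

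**Figure D4:**
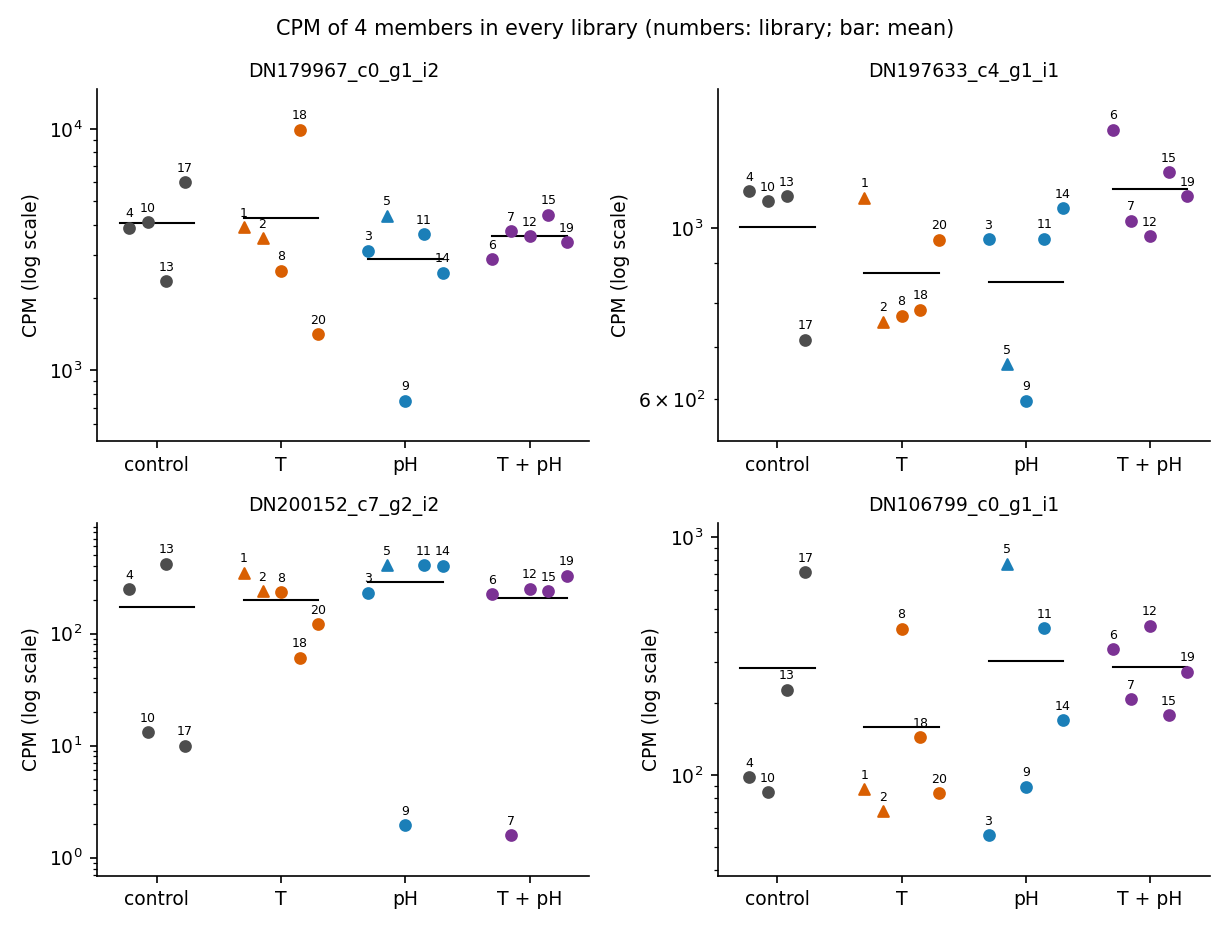
CPM (log scale) of 4 members in every library by treatment, each point labelled with its library number, triangles for SD1, SD2 and SD5 and a bar at the treatment mean over all 19 libraries. DN179967_c0_g1_i2 is highest in SD18 and lowest in SD9, DN197633_c4_g1_i1 stays between 597 and 1343 CPM, DN200152_c7_g2_i2 drops below 14 CPM in SD7, SD9, SD10 and SD17, and DN106799_c0_g1_i1 is highest in SD5 and SD17.

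Some members of different assembled genes kept their ratio in all 19 libraries within counting error. Of 19861 pairs of members from different genes, 30 had a chi-square per degree of freedom (18 degrees) below 1, and these pairs involved 32 members. The median over all 19900 pairs was 116.8. DN250759_c0_g1_i4 and DN91234_c0_g1_i1 had 887 and 869 counts in SD10, 5078 and 5112 in SD1, 917 and 914 in SD18, and 10798 and 10740 in SD9. Their ratio stayed between 0.975 and 1.05 and their chi-square per degree of freedom was 0.411. DN106799_c0_g1_i1 and DN195819_c2_g2_i2 had a value of 0.50, with ratios of 1.11 to 1.56. Whether such pairs are assembled from the same molecules was not tested, for want of their sequences.

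Isoforms of 1 gene were closer still. The 200 members came from 168 assembled genes, and 26 genes held 58 of the members, up to 4 each. Of the 39 pairs of members from 1 gene, 25 had a chi-square per degree of freedom below 0.1, which is less than counts of separate molecules would give. DN197477_c0_g1_i2 and DN197477_c0_g1_i3, for example, had 2395 and 2393 counts in SD10, 2497 and 2497 in SD18, and 14801 and 14796 in SD9. Such isoforms cannot be taken as separate measurements, and the count of each single isoform is uncertain.

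The same genes also held isoforms that differed between the 2 sets of libraries. Besides the members, their genes had 98 other isoforms with a count, 50 of them at 10 CPM or more in either set. Of these 50, 12 were at least 4-fold higher and 13 at least 4-fold lower in SD1, SD2 and SD5, 50% in all, against 74.5% of all 21142 transcripts at that level. They lay in 19 genes, of which 4 had isoforms in both directions. In gene DN200838_c3_g1 the member DN200838_c3_g1_i4 had means of 806 and 962 CPM in the 3 and the 16 libraries. Its isoform DN200838_c3_g1_i2 had 1003 and 21.1 CPM, and DN200838_c3_g1_i1 had 27.8 and 1041 CPM. The member was thus of like level in both sets while the other isoforms of its gene changed places.

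The comparisons between treatments ask whether temperature, pH or both moved these transcripts. In the 16 libraries none of the 200 members passed an adjusted p of 0.05 in any of the 6 pairwise comparisons or in the test across treatments by edgeR's quasi-likelihood test, nor did any of all 39230 transcripts tested (0% called). DESeq2 on the same libraries also called 0 members. Of all transcripts it called 0.00765% in T against control, 0.0306% in pH against control, 0.0127% in T + pH against control, 0.0382% in pH against T, 0.00765% in T + pH against T, 0.00255% in T + pH against pH and 0.143% across treatments. The smallest adjusted p of a member in edgeR was 0.744. The median standard error of a member's log2 fold change was 0.42 to 0.47, depending on the comparison. Much larger changes than that were not called either. DN196388_c0_g1_i1, at a log2 fold change of -1.35 in pH against T, was the member with that adjusted p of 0.744. The absence of calls therefore does not show that the members were unchanged.

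At an unadjusted p under 0.05 the members were no more frequent than the background in 5 of the 6 comparisons. They numbered 1 in T against control (4.57% of all transcripts), 0 in pH against control (3.69%), 0 in T + pH against control (3.26%), 1 in T + pH against T (4.88%) and 0 in T + pH against pH (4.22%). In the test across treatments there were 0 (4.89%). In pH against T there were 36 (5.98%), 35 of them lower in pH (3.94% of all transcripts in that direction) and 1 higher (2.05%).

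Of the 36, 34 were among the 126 members of even proportion, and 28 had a p between 0.04 and 0.05, so that the count moved with most libraries, also with those of other treatments. Without SD18 (6% of all transcripts in that fit), and likewise without SD14 (5.69%), it was 0. Without SD9 (4.8%) it was 2, as it was without both SD9 and SD18 (4.82%), and these 2 were higher in pH, so that none of the lower members remained. Without SD4 (5.71%), SD6 (5.69%) or SD19 (5.68%) it was 10, 12 and 11, and without SD13 (5.68%) it was 19. It was 57 without SD7 (6.49%), 93 without SD3 (6.12%), 111 without SD8 (6.89%) and 121 without SD20 (5.4%). DESeq2 gave 83 (3.36% of all transcripts). With counts corrected for repeated identifiers it was 9 (6%), and with library totals as the scaling 3 (5.83%). Without robust estimation it was 7 (6.19%), and with at least 5 counts in every library 5 (4.15%). It was 70 with no filter (5.85%), 79 with DESeq2's size factors in edgeR (6.15%) and 56 with the current edgeR method (7.23%). With treatments by listed totals it was 10 (5.97%), and all 10 were higher in pH, the opposite direction. Of the 35 that were lower in pH, DN196388_c0_g1_i1 had the smallest p, with a log2 fold change of -1.35 ± 0.56 (SE), an unadjusted p of 0.0219 and an adjusted p of 0.744 by edgeR.

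The direction of the members as a group also turned on SD18. In all 16 libraries the median log2 fold change of the 200 was 0.55 in T against control, -0.76 in pH against T and -0.34 in T + pH against T, where the medians over all transcripts were 0.07, -0.04 and -0.07. Without SD18 the members' medians were -0.30, 0.06 and 0.48, the opposite sign in each. T then rests on SD8 and SD20 alone. SD20 pulled the other way, since without it the medians were 0.82, -1.10 and -0.64. The comparisons without T kept their sign: the medians were -0.25 in pH against control, 0.15 in T + pH against control and 0.45 in T + pH against pH, and -0.09, 0.14 and 0.23 without both SD9 and SD18. The 126 members of even proportion and the other 74 differed in these medians. They were 0.61 and -0.02 in T against control, -0.35 and -0.01 in pH against control, and -0.96 and -0.01 in pH against T. In T + pH they were 0.14 and 0.23 against control, -0.43 and 0.25 against T, and 0.49 and 0.23 against pH. With the treatments that the listed totals would give, the members' medians in all 16 libraries were -0.15 in T against control, 0.43 in pH against control, 0.59 in pH against T, 0.16 in T + pH against T and -0.47 in T + pH against pH, each of the opposite sign. In T + pH against control the median was then -0.004, with 95 members higher and 105 lower.

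**Figure D5:**
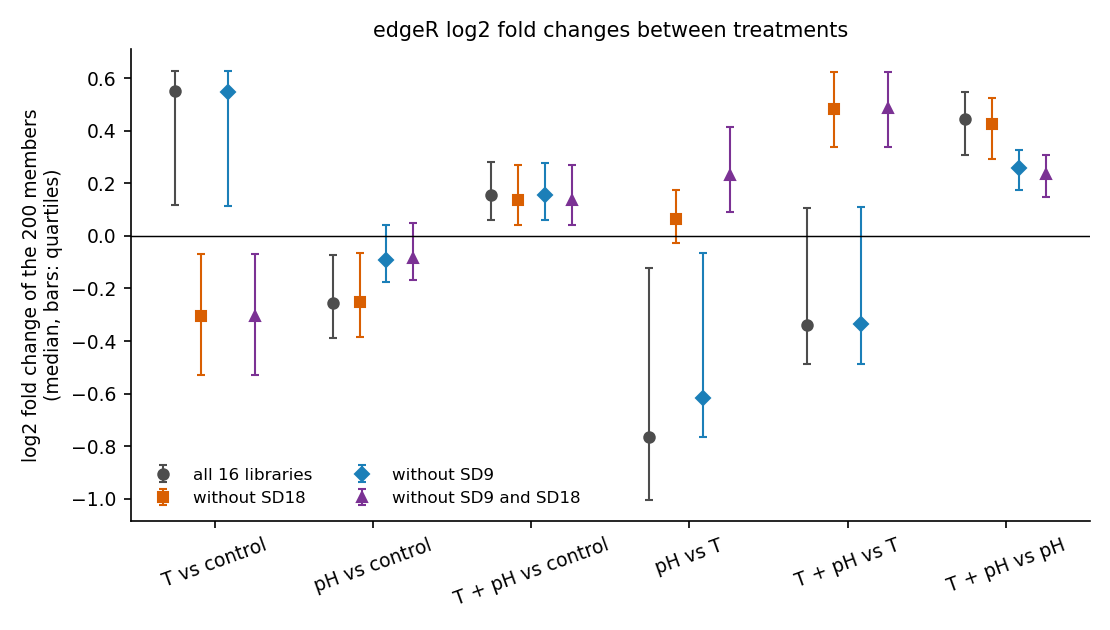
Log2 fold changes of the 200 members from edgeR for the 6 comparisons of treatments (x axis), as medians with quartiles (bars), in all 16 libraries, without SD18, without SD9 and without both. The medians of the 3 comparisons with T cross the zero line when SD18 is left out, and those of the other 3 keep their side.

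The spread of treatment means gives the same picture in levels. The highest of the 4 treatment means was a median of 1.60-fold above the lowest in the 16 libraries (1.10 to 2.23), and the spread was below 2-fold for 194 members. T had the highest mean for 129 members, T + pH for 43, pH for 18 and the control for 10. Without SD9 and SD18 the median spread was 1.41-fold, and T + pH had the highest mean for 134 members, the control for 28, pH for 22 and T for 16. As a share of the member sum, in all 16 libraries, the median spread was 1.20-fold.

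The 4 members with the smallest p across treatments in the 16 libraries were DN197984_c11_g1_i1, DN196388_c0_g1_i1 and the isoforms DN201088_c10_g1_i6 and DN201088_c10_g1_i2, with unadjusted p of 0.0648 to 0.108 and adjusted p of about 1 by edgeR. DN197984_c11_g1_i1 had 186, 105, 192 and 205 CPM in control libraries SD4, SD10, SD13 and SD17, and 234, 517 and 151 in T libraries SD8, SD18 and SD20. It had 262, 141, 158 and 133 CPM in pH libraries SD3, SD9, SD11 and SD14, and 283, 423, 265, 247 and 182 in T + pH libraries SD6, SD7, SD12, SD15 and SD19. Of the 5 T + pH libraries, 4 lay above all control libraries, and all treatments overlapped. The log2 fold change of T + pH against control was 0.77 ± 0.40 (SE), with an unadjusted p of 0.0660. In T libraries SD1 and SD2, not in this fit, it had 562 and 213 CPM, and in SD5 275 CPM.

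DN196388_c0_g1_i1 followed SD18 more closely. It had 1526, 1078, 1200.3 and 1773 CPM in the control and 1333, 5625 and 819.7 in T libraries SD8, SD18 and SD20. In pH libraries SD3, SD9, SD11 and SD14 it had 1922, 461, 1283 and 989.8, and in T + pH 2080.3, 1951, 2064, 1732 and 1405. The T range enclosed that of every other treatment but for SD9. DN201088_c10_g1_i6 likewise ran from 279.6 CPM in SD9 to 1270.2 CPM in SD18.

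Members whose CPM ranges did not overlap between 2 treatments were few, and they were named after their values were seen. There were 5 in pH against T (3.73% of all transcripts), all higher in pH, and 2 in T + pH against T (1.46%). In T against control (2.2%), pH against control (1.72%), T + pH against control (0.584%) and T + pH against pH (1.17%) there were 0. The 5 are 3 isoforms of DN198650_c1_g2, DN200324_c0_g5_i1 and DN196931_c2_g1_i1. DN198650_c1_g2_i5 had 543, 348, 321 and 506 CPM in pH libraries SD3, SD9, SD11 and SD14 against 281, 202 and 302 in T libraries SD8, SD18 and SD20, with a log2 fold change of 0.60 ± 0.39 (SE) and an adjusted p of 0.900 by edgeR. All 5 are among the 74 members, and SD1, SD2 and SD5 are not in these ranges.

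The 2 members in T + pH against T moved in opposite directions. DN197633_c4_g1_i1, given in full above, was higher in T + pH, with a log2 fold change of 0.39 ± 0.36 (SE) and an adjusted p of 0.987 by edgeR, and library SD1 of T, at 1096 CPM, would close the gap. DN194121_c1_g2_i1 was lower, at 292, 214, 316, 205 and 219 CPM in T + pH against 335, 388 and 351 in T, with a log2 fold change of -0.53 ± 0.43 and an adjusted p of 0.987. In SD1 and SD2 it had 294 and 149.6 CPM, again inside the T + pH range or below it. Neither difference was larger than the spread between libraries by the test across all transcripts.

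The fit on all 19 libraries holds the contrast that chose the members, since SD1 and SD2 are T and SD5 is pH, so its comparisons with T and pH are given as a description. No member and no transcript of 51953 (0%) passed an adjusted p of 0.05 in edgeR, where the smallest adjusted p of a member was 0.178. At an unadjusted p under 0.05 there were 8 members in T against control (17.4% of all transcripts), 0 in pH against control (5.94%), 6 in pH against T (5.03%), 1 in T + pH against T (27%), 0 in T + pH against pH (11%) and 0 across treatments (17.5%). In T + pH against control, which holds none of the 3 libraries, there were 0 (1.24%). DESeq2 called 3 members in these comparisons. DN197984_c11_g1_i1 was called in T against control (7.77% of all transcripts called), with a log2 fold change of 1.84 ± 0.66 (SE) and an adjusted p of 0.0381 by DESeq2. DN196397_c0_g1_i7 was called in T + pH against T (10.2%), at -1.64 ± 0.50 and an adjusted p of 0.0115 by DESeq2. DN200047_c2_g2_i1 was the other in that comparison, at -1.06 ± 0.41 and an adjusted p of 0.0480 by DESeq2. It called 0 members in pH against control (2.65% of all transcripts), T + pH against control (0.662%), pH against T (0.00385%), T + pH against pH (3.07%) and across treatments (2.08%).

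The scaling also moved these counts. TMM factors were at most 0.790 in SD1, SD2 and SD5 and at least 0.860 in the 16. With DESeq2's size factors in edgeR, 32 members had an unadjusted p under 0.05 in T against control (18.8% of all transcripts). In T + pH against T there were 39 (30.7%). These are 16% and 19.5% of the members, below the background in both. DESeq2's own test gave 75 members in T against control, 37.5% of the members against 16.5% of all transcripts. In T + pH against T it gave 95, 47.5% against 18.9%. Both shares were above the background. Membership also rests in part on the scaling. By CPM on TMM-scaled library sizes the same rule, with its fold limit and its abundance rank, kept 177 of the 200.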

How the data were processed

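The authors trimmed the reads of each library, mapped them with bowtie2 to the species' de novo Trinity transcriptome with spike-in sequences, and counted identifiers per transcript. The authors deposited raw counts for each transcript and library, without normalization or pooling of replicates. In the study's own workflow the counts were then adjusted in R for transcripts that share an identifier. The deposited values are whole numbers with none above 16373, below the 16384 sequences that 7 bases allow, and were taken as not yet adjusted, which the sources do not state. All 19 S. durum columns were used, and 0 columns belonged to no sample of the series. The 17 columns of the other species were counted only.

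The members and lists were chosen with earlier results of these data known. CPM was taken by library total. Transcripts with at least 5 counts in all were tested with edgeR 4.0.16 (R 4.3.3, limma 3.58.1), TMM scaling and the robust quasi-likelihood F-test in the form of earlier versions, all treatments in 1 model, and p-values were adjusted by Benjamini-Hochberg over every transcript in the fit. Called transcripts had an adjusted p under 0.05 and moved by more than 0.3 on the log2 scale. The SE is the fold change over the square root of F. DESeq2 1.42.0, with adjusted p left missing where it gives none, other scalings and filters, and fits without each library were the alternatives. The edgeR fit was also run on simulated counts, drawn from a single common profile with changes added in T + pH. That simulation held neither the separate profile of SD1, SD2 and SD5 nor the departures of SD18 and SD9, so it does not bear on them. A correction of this kind, with the identifier length assumed, shares of the member sum, and leaving out SD9 and SD18 were added after the data were seen.

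Members named with values are the 8 most abundant, the 4 lowest and 4 highest in CV over the 16 libraries, the 4 smallest p across treatments, those at the edges of the rule, and called members. Others, including the pair from different genes and the changing isoforms given as examples, were chosen after their values were seen. The labels call samples biological replicates without naming their source, so p-values measure the spread between these samples. Python 3.11.15 with pandas 2.3.3 and scipy 1.17.1 was used.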

Additional observations from a re-analysis of the deposited data

Results flagged for a closer look

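A library was singled out where its gap to the nearest other library of its treatment took up most of the range of that treatment (Dixon's ratio above its 95% critical value). Over 96 groups, made of 4 treatments for each named member and for the summed share, 4 were singled out, and chance alone gives about 1 in 20. DN200499_c5_g1_i1 had 8344 CPM in SD18 of T, against 1276 to 3238 CPM in the other T libraries. DN197633_c4_g1_i1 had 717 CPM in SD17 of the control, against 1085 to 1117 CPM in the others. DN195819_c2_g2_i2 had 327 CPM in SD8 of T, against 55.4 to 118 CPM, and DN106799_c0_g1_i1 had 412 CPM in the same library, against 70.6 to 145 CPM. The last 2 members keep a near-constant ratio and are not independent of each other.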

How the results depend on the processing

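The library names and the listed totals disagree, so every treatment comparison has that limit, and transcripts have no annotation. In 19 libraries DESeq2 called 3 members, where all edgeR alternatives called 0, and in 16 libraries every alternative called 0. Members at an unadjusted p under 0.05 across treatments, 0 in both fits, are given with the share of all transcripts in the same fit. In 19 libraries they were 1 with DESeq2's size factors in edgeR (18.9%), 1 with at least 5 counts in every library (8.4%), 10 with DESeq2 (11.5%), 1 with treatments by listed totals (4.84%) and 1 without SD9 and SD18 (17.9%). In 16 they were 4 with treatments by listed totals (6.3%). Without each library in turn they ranged from 0 to 33 in 19 libraries (33 without SD5, 33.8%; 12 without SD8, 23%) and from 0 to 8 in 16 (8 without SD20, 4.79%).

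The median CV in 19 libraries was 0.407. It was 0.530 by TMM, 0.803 by DESeq2's size factors, 0.183 as a share of the member sum and 0.273 without SD9 and SD18, and 0.306 to 0.421 without each library in turn. In 16 libraries it was 0.431, with 0.588 by DESeq2's size factors, 0.186 as a share of the member sum, 0.258 without SD9 and SD18, and 0.291 to 0.447 without each library in turn. The median spread of treatment means was 1.52-fold in 19 libraries (1.24 to 1.68 without each library in turn), 2.40-fold by DESeq2's size factors, and 1.60-fold in 16 (1.43 to 1.90). The cause of these differences was not tested. Of the members, 167 to 200 were kept under other forms of the rule and 191 to 200 without each library in turn. All 598 alternatives for named members kept them above the threshold across treatments in 16 libraries (adjusted p of 0.841 or more).

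No paired analysis was possible because each library number belongs to 1 sample only and the treatments share none.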
